A study of Mus musculus with 31 samples.

Results

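The comparison set endothelium of the yolk sac against endothelium of the embryo proper, both isolated from mice at E11.5 (E, embryonic day) and profiled by RNA-seq. The libraries were taken by their titles, 2 for yolk sac and 2 for embryo, of 31 in the series. The series as a whole concerned expandable hemangioblasts, cultured progenitors of blood and endothelium, and these 4 libraries stand in it as primary endothelial controls. Per the labels, both groups were sorted by flow cytometry for surface VE-cadherin (encoded by Cdh5) and Pecam1, and the cells were lysed after isolation without culture. Both groups therefore share the same gate and differ by the tissue of origin. The labels give neither strain nor genotype for them, and do not say whether the 2 libraries of a group came from separate litters or animals. P-values here measure only the spread between these libraries, which may be technical. The 5 endothelial cultures of the same series, grown from hemangioblast lines, entered no test and serve below as a level for cultured endothelium.

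The yolk sac is the extraembryonic membrane that feeds the early embryo. Its outer layer is the visceral endoderm, an absorptive epithelium that secretes serum proteins, its other face is mesothelium, and a capillary plexus with the first blood cells lies between them. Endothelium takes on properties of its organ: sinusoidal endothelium clears macromolecules through scavenger receptors, whereas brain capillaries answer to Wnt ligands with barrier genes and nutrient transporters. Expression is given in TPM (a transcript level corrected for length and scaled to a fixed library total), and differences as log2 fold changes of yolk sac minus embryo with their standard error (SE).

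The libraries held 24221267 and 26220764 expected counts in yolk sac and 30400302 and 23548227 in embryo. Embryo library 2 held 48530 TPM of erythroid transcripts summed over 18 genes, against 3439 in embryo library 1 and 7893 and 16720 in the yolk sac libraries. The libraries also differed in how transcript length went with level. For transcripts over 8 kb the median log2 ratio of replicate 1 to replicate 2 was 0.47 in yolk sac and -0.69 in embryo, and for those under 1 kb it was -0.15 and 0.27. Between the groups the median log2 fold change, from the scaled counts tested below, ran from -0.18 under 1 kb to 0.01 over 8 kb. In TPM, the median for yolk sac library 1 against embryo library 2 was -0.03 and -0.04 in these classes. For yolk sac library 2 against embryo library 1 it was -0.15 and 0.15. The length trend was thus larger between replicates than in these comparisons of the tissues. Each of them set together libraries that leaned the same way in length within their group. Pairs that leaned opposite ways, such as yolk sac library 1 with embryo library 1, were not compared, and their trend may be larger.

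Of 13673 genes tested with edgeR's quasi-likelihood test, 2175 were higher and 1168 lower in yolk sac at a Benjamini-Hochberg adjusted p under 0.05. That is 15.9% and 8.54% of the genes tested, and 24.4% in either direction, against which the counts per gene list below are to be read. The TPM of the groups did not overlap for 60.1% of the genes tested. The split depended on the scaling. With the libraries scaled to equal levels of the 34 pan-endothelial genes the median of all genes shifted by -0.34 on the log2 scale, and 1595 genes were higher and 3386 lower. In one fit over all 9 groups of the series, which share 1 estimate of the spread, 530 and 132 genes were called.

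**Figure D1:**
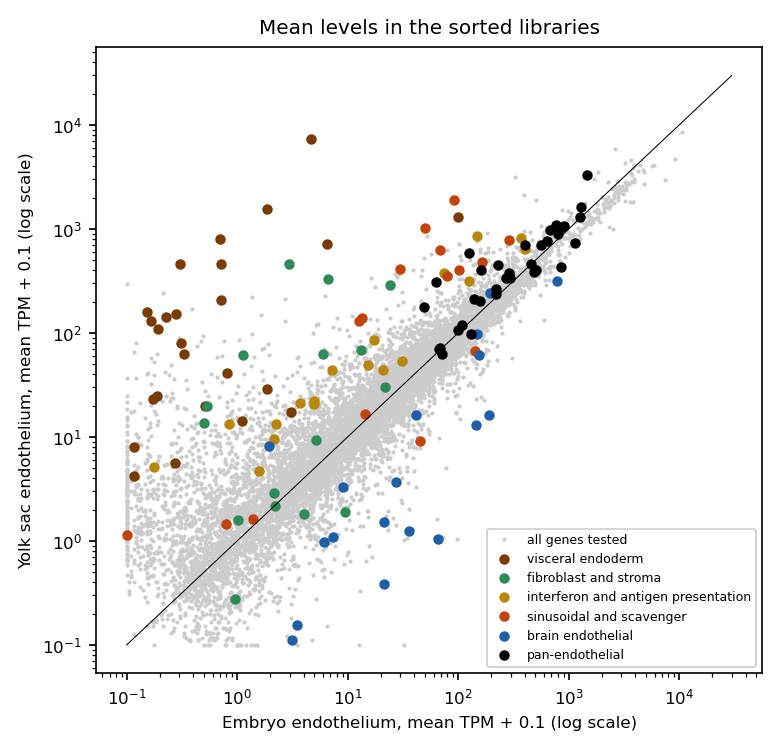
Mean TPM of each gene tested in embryo (x axis) and yolk sac endothelium (y axis), both plus 0.1 on log scales, with 6 gene lists in colour and the line of equality. Most pan-endothelial genes lie near the line, visceral endoderm genes far above it and most brain endothelial genes below it.

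The genes of the 2 sort markers, Cdh5 and Pecam1, and a further endothelial gene, Kdr, were abundant in all 4 libraries. Cdh5 stood at 1826 and 1410 TPM in yolk sac and 1079 and 1509 TPM in embryo, Pecam1 at 1149 and 956 against 795.5 and 948 TPM, and Kdr, the main VEGF receptor, at 1154 and 798 against 528 and 834 TPM. The groups overlapped for Cdh5 and Kdr and were narrowly apart for Pecam1, and none passed the test (adjusted p = 0.507, 0.556 and 0.27). Of the 34 pan-endothelial genes 7 were higher and 1 was lower, with a median log2 fold change of 0.23 against -0.03 over all genes tested. That median became -0.11 under the scaling by these same genes, with 5 higher and 6 lower. Without yolk sac library 1 the counts were 3 and 0, and without library 2 they were 4 and 1. The lower genes numbered 2 without embryo library 1 and 3 without library 2. Clec14a, a surface glycoprotein of vascular endothelium, was at 599 and 569 TPM in yolk sac and 125 in both embryo libraries (2.17 ± 0.23 SE, adjusted p = 9.73e-05). Calcrl, the adrenomedullin receptor subunit, was at 334 and 280 against 57.9 and 69.2 TPM (2.23 ± 0.21, adjusted p = 3.79e-05). In both genes the yolk sac libraries stood well clear of the embryo libraries. Emcn, a sialoglycoprotein typical of venous and capillary endothelium, was the 1 gene lower in yolk sac, at 413 and 458 against 927 and 794.5 TPM (-1.03 ± 0.24, adjusted p = 0.00967, and 0.13 without yolk sac library 1).

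Transcripts of visceral endoderm were abundant in the yolk sac libraries and nearly missing from the embryo libraries. The 25 listed genes summed to 14150 and 13700 TPM in yolk sac and 120 and 126 TPM in embryo, and all 25 of 25 tested were higher (median 8.40). Most of the embryo sum was Trf, transferrin (93.0 and 107 TPM), a gene also made by other cells. Afp, the fetal serum protein alpha-fetoprotein (ENSMUSG00000054932, chromosome 5, 90490737 to 90508907 in GRCm38), reached 7392 and 7385 TPM in yolk sac against 6.35 and 2.83 TPM in embryo, above the level of Cdh5 in the same libraries. Its log2 fold change was 10.54 ± 0.60 (adjusted p = 1.51e-06). Apoa4, an apolipoprotein, was at 448.5 and 475 against 0.041 and 0.362 TPM, and Ttr, the thyroid hormone carrier transthyretin, at 816 and 777 against 0.742 and 0.455 TPM. For these genes the yolk sac replicates were alike and the groups were far apart, while the low embryo levels differed more in proportion. Apob, another apolipoprotein of the list, was less even in yolk sac, at 156 and 62.5 against 0.113 and 0.072 TPM.

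The largest increases over all genes followed the same pattern. S100g, a calcium-binding protein of absorptive epithelia, stood at 318 and 274 TPM in yolk sac and had no count in embryo (at least 1274-fold higher, against a floor of 3 counts over the group, which covers counting error only). Cldn2, a claudin of leaky epithelia, and Gc, the vitamin D-binding protein, also had no count in embryo (at least 579-fold and at least 538-fold higher). The fibrinogen chains Fga and Fgg, the kininogen gene Kng1, the zinc transporter Slc39a5 and the membrane protease Tmprss2 were in the same ranking. In these bulk libraries, fewer cells of a type and less RNA per cell cannot be told apart. Afp is shown with the bases upstream of its start, because they held an HNF1 motif (GTTAAT, any base and ATT, on either strand, within 250 bases before the start). It was the 1 gene with this motif of the 20 visceral endoderm genes with a RefSeq promoter. The motif was found in 0.44% of all 27025 genes with a promoter and 1.28%, 0% and 0.115% of the higher, lower and uncalled genes. Of the 9 motifs searched, named below with the interferon genes, the others were each found upstream of 0 to 4 of these 20 genes. HNF1 factors are regulators of endoderm genes, and their motif is in capitals (chr5:90490464-90490713, plus strand, GRCm38.p6). The window is this:

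Afp: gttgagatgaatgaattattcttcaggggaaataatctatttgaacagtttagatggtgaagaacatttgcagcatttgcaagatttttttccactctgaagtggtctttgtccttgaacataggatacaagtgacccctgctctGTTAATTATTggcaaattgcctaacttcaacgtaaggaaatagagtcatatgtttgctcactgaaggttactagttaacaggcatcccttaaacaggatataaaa

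Other non-endothelial lists differed in the same direction. Epithelial genes were higher in 10 of 10 tested (Krt8, a keratin, at 252 and 194 against 2.13 and 0.372 TPM). Mesothelial genes were higher in 5 of 6, with Upk3b, an uroplakin of mesothelium, at 19.8 and 16.8 against 0.371 and 0.124 TPM. The keratins Krt8, Krt18 and Krt19 are in both lists and were higher, so these 2 counts are not independent. The mesothelial gene Lrrn4 was not called. In the fibroblast and stroma list 8 of 16 were higher and 3 lower, and the sum was 1396 and 1310 TPM against 80.1 and 120 TPM. Col1a1, the main chain of type I collagen, stood at 502 and 418 against 2.13 and 3.53 TPM (7.32 ± 0.32, adjusted p = 4.04e-07). Pdgfra, a receptor that marks many fibroblasts, was at 3.40 and 2.19 against 1.78 and 2.30 TPM and was not called. Smooth muscle and pericyte genes were higher in 7 of 12, among them Acta2, smooth muscle actin, at 113 and 131 against 5.46 and 5.12 TPM, and lower in 1, Notch3. The 3 stromal genes that were lower were Thy1, a surface glycoprotein, and the homeobox genes Prrx1 and Meox1, all under 11 TPM in every library, and 1 was called lower without yolk sac library 1.

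Lists of blood cells differed in their counts. In the erythroid list 1 of 18 genes was called, Epor, the erythropoietin receptor, which was higher. Without embryo library 2 it had 7 genes higher and 0 lower, and without embryo library 1 it had 1 higher and 9 lower. Hbb-y, an embryonic globin, was at 2891 and 6600 TPM in yolk sac and 1392 and 17160 TPM in embryo, so the embryo libraries lay on either side of the yolk sac libraries. Globin genes have close copies and their split by the estimation is uncertain. In the macrophage list 3 of 18 were higher (Mrc1, F13a1 and Fcer1g) and 1 was lower, and the complement genes C1qb (70.6 and 142 against 78.7 and 97.4 TPM) and C1qc overlapped between the groups. Without yolk sac library 1 this list had 6 higher and 0 lower, and without library 2 it had 3 of each. In the leukocyte list 5 of 11 were higher and 2 lower (median 0.59), with 2 higher without yolk sac library 2 or embryo library 1, and 0 or 1 lower without yolk sac library 1 or 2. Was, a regulator of actin in blood cells, was at 24.2 and 23.5 against 5.14 and 10.05 TPM (adjusted p = 0.00157). Ptprc, which encodes the leukocyte surface protein CD45, was low in all libraries, at 4.92 and 7.10 against 1.38 and 3.07 TPM, and was called higher (adjusted p = 0.02, but 0.0792 without yolk sac library 2 and 0.0546 without embryo library 1). Megakaryocyte genes were higher in 8 of 14 and lower in 1 (median 1.51), with Itga2b, an integrin of megakaryocytes and early blood progenitors, at 113 and 85.7 against 9.74 and 20.5 TPM. In the endothelial cultures 9 of these 14 genes were at 10 TPM or more on average, with Itga2b at 149 TPM. Muscle genes were lower in 4 of 8 tested (2 without embryo library 1), with Tnnt2, cardiac troponin T, at 0.859 and 1.50 against 12.1 and 9.79 TPM, and neural genes were lower in 4 of 12 and higher in 0. Genes of the early response, which handling of cells can induce, were higher in 7 of 12 and lower in 0 (median 0.94), and their sum was 1417 and 1462 TPM in yolk sac against 727 and 1052 in embryo. Hspa1a, a heat shock protein with a near-identical copy, was at 129 and 143 against 18.6 and 52.8 TPM (adjusted p = 0.00433), and Fosb and Egr1, immediate early genes, were called higher too. The part these transcripts have in the differences below was not tested.

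**Figure D2:**
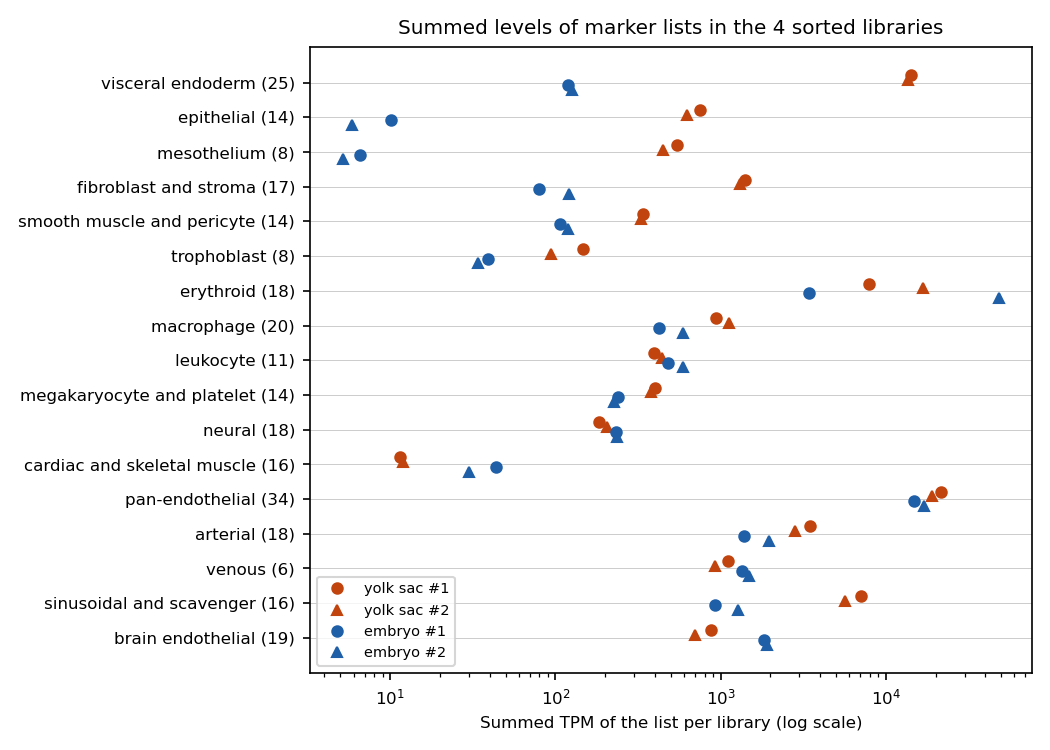
Summed TPM of marker lists (number of genes in brackets) in each of the 4 libraries, on a log scale, with yolk sac in red and embryo in blue. Visceral endoderm, epithelial and stromal sums separate the groups widely, whereas the erythroid sums of the embryo libraries lie on both sides of the yolk sac sums.

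Scavenger receptors of sinusoidal endothelium were higher in yolk sac. Of 16 listed genes 11 were higher in yolk sac and 2 were lower (median 2.04). Lyve1, a hyaluronan receptor (ENSMUSG00000030787, chromosome 7, 110850607 to 110863239), was at 2034 and 1796 TPM in yolk sac and 68.2 and 113 TPM in embryo (4.38 ± 0.30, adjusted p = 4.98e-06). Stab2, which takes up hyaluronan and other ligands (ENSMUSG00000035459, chromosome 10, 86841198 to 87008025), was at 1233 and 798 against 32.6 and 67.5 TPM (4.33 ± 0.38, adjusted p = 2.66e-05). The lowest yolk sac library exceeded the highest embryo library by a wide margin in both. Mrc1, the mannose receptor, which macrophages also make, was at 498 and 335.5 against 19.7 and 39.5 TPM (3.80 ± 0.32, adjusted p = 2.07e-05). Mrc1 was 1 of 3 macrophage list genes that were higher, beside F13a1 (1.34 ± 0.23, adjusted p = 0.0018) and Fcer1g (1.23 ± 0.22, adjusted p = 0.0026), and the part of macrophage transcripts in its value was not tested.

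The fatty acid receptor Cd36 was at 150.4 and 126 against 11.6 and 15.1 TPM (3.33 ± 0.20), and Maf, a transcription factor of sinusoidal cells, at 148 and 114.5 against 8.10 and 16.8 TPM (3.39 ± 0.28). Stab1, Gpr182, Oit3, Dab2, Ehd3 and Fcgr2b were higher as well. Gata4, a transcription factor of liver sinusoids and of endocardium, ran the other way, at 4.74 and 13.2 against 44.2 and 46.9 TPM (-2.37 ± 0.46, adjusted p = 0.0118). Its call ended without embryo library 1 (0.253) or 2 (0.184). Clec1b, a C-type lectin of platelets and sinusoids, was at 71.1 and 64.4 against 168 and 114 TPM (-1.06 ± 0.26, adjusted p = 0.0136). Without either embryo library 1 gene of the list was lower. Clec4g, Bmp2 and Wnt2 overlapped between the groups and were not called. In endothelial cultures, 9 of the 16 genes were at 10 TPM or more on average, including Lyve1 at 1992 TPM and Stab2 at 336 TPM.

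Genes of brain endothelium were lower in yolk sac almost throughout, with 16 of 18 lower and 1 higher (median -2.97). Lef1, a transcription factor of Wnt signalling (ENSMUSG00000027985, chromosome 3, 131110471 to 131224356), was at 0.093 and 0.48 TPM in yolk sac and 22.6 and 20.3 TPM in embryo (-6.55 ± 0.44, adjusted p = 4.76e-06). Spock2, a matrix proteoglycan, was at 0.922 and 0.98 against 56.4 and 74.1 TPM (-6.14 ± 0.23), and Foxf2, a regulator of brain pericytes and endothelium, at 0.911 and 1.38 against 36.9 and 35.3 TPM (-5.02 ± 0.29). These 3 genes stood near 1 TPM or below in the yolk sac libraries and above 20 TPM in the embryo libraries. Slc7a5, a large neutral amino acid transporter of the blood-brain barrier, was at 16.6 and 16.1 against 182 and 198 TPM (-3.59 ± 0.19, adjusted p = 1.16e-06). Apcdd1, a Wnt inhibitor, was at 16.2 and 9.59 against 151 and 141 TPM.

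The glucose transporter Slc2a1 was at 361 and 274.5 against 759 and 815 TPM (-1.36 ± 0.23, adjusted p = 0.00189, and 0.071 without yolk sac library 2). Mfsd2a, a lipid transporter, was at 2.41 and 0.459 against 20.1 and 22.5 TPM (adjusted p = 0.000693), and its adjusted p was 0.0594 without embryo library 1 and 0.0539 without library 2. The tight junction gene Ocln was the exception, at 8.19 and 7.93 against 1.68 and 1.97 TPM (2.10 ± 0.27). Gpr124, a receptor needed for brain vessels, was not called. Wnt pathway genes were lower in 7 of 18 and higher in 3 (1 without embryo library 1). Their median was 0.12, against -0.03 over all genes tested, and Lef1 and Gpr124 are in both this and the brain list. The ligand receptor Fzd10, from the ranking over all genes, was at 0.528 and 1.46 against 70.8 and 76.0 TPM. In the neural list 4 of 12 genes were lower and 0 higher (median -1.36). The groups did not overlap for 9 of the 12, against 60.1% of all genes tested, and 8 of the 9 were lower in yolk sac. The sum of the neural list was 183 and 206 TPM in yolk sac against 232 and 236 in embryo. Most of that sum was Gap43, a growth cone protein that was not called. The part of neural transcripts in the brain endothelial result was not tested.

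**Figure D3:**
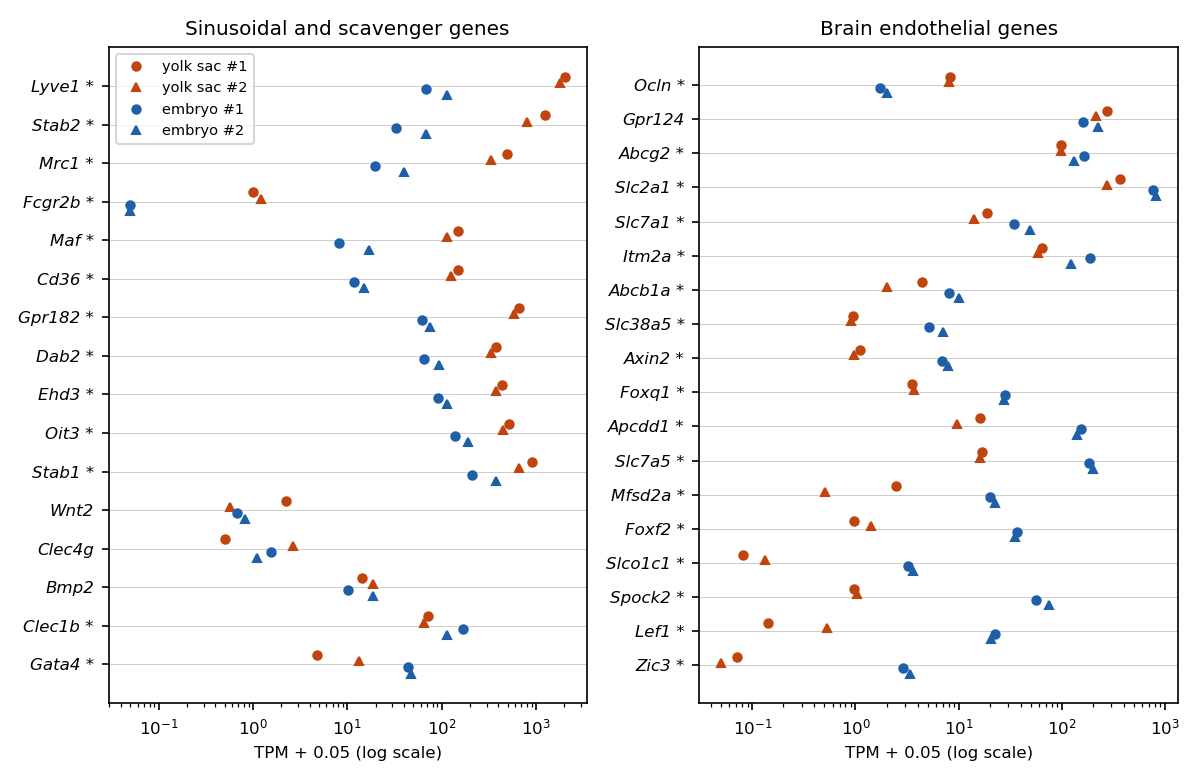
TPM plus 0.05 on a log scale for tested genes of the sinusoidal and scavenger list (left) and of the brain endothelial list (right), ordered by fold change, with yolk sac in red and embryo in blue. An asterisk marks an adjusted p under 0.05: 11 sinusoidal genes have both yolk sac libraries on the right, and 16 brain genes have them on the left.

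Arterial and venous genes were split. Of 18 arterial genes 7 were higher and 2 lower, with 4 higher without yolk sac library 1 and under the scaling by pan-endothelial genes. Gja5, the arterial connexin 40, was at 681 and 572 TPM in yolk sac and 72.8 and 86.6 TPM in embryo (2.93 ± 0.22, adjusted p = 1.04e-05), and Sema3g, a semaphorin of arterial endothelium, at 292 and 195 against 54.6 and 86.2 TPM (1.76 ± 0.24). Hey1, a Notch target (35.1 and 31.4 against 63.1 and 70.8 TPM), and the ligand Jag2 (22.02 and 20.3 against 46.0 and 75.3 TPM) were lower. Of the 6 venous genes 3 were lower and 1 was higher. With the replicate number as a block 2 were lower, and in a test against a 2-fold change 1 was lower and 0 higher. Leaving out either yolk sac library reduced the lower count, and leaving out yolk sac library 2 or embryo library 1 reduced the higher count. Aplnr, the apelin receptor gene and 53.9% of the list sum, lost its call with the block (adjusted p = 0.143 with edgeR). Nr2f2, the COUP-TFII regulator of venous fate, was at 28.4 and 26.9 against 47.8 and 74.7 TPM (-1.14 ± 0.22, adjusted p = 0.00354), and Ephb4 overlapped between groups.

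In the lymphatic list 3 genes were higher and 5 lower of 9, and Lyve1, counted above, was among the 3. Prox1, the regulator of lymphatic fate, was at 0.756 and 0.605 against 6.74 and 13.3 TPM (-3.89 ± 0.31, adjusted p = 1.22e-05). Ccl21a, a chemokine of lymphatic vessels, had no count in yolk sac and 25.7 and 39.0 TPM in embryo (at least 227-fold lower). Mmrn1, a matrix protein of lymphatic vessels, and Foxc2, a transcription factor of lymphatic valves, were lower too (-1.99 ± 0.19 and -2.13 ± 0.25). So Lyve1 was high in yolk sac where Prox1 was near 1 TPM or below.

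Signalling genes were next taken by role. Among ligands, Vegfa was at 47.2 and 47.3 TPM in yolk sac against 6.47 and 14.2 in embryo (2.16 ± 0.28, adjusted p = 0.000359). Vegfc, which acts mainly through Flt4, was at 115 and 99.5 against 28.1 and 36.1 TPM (1.70 ± 0.18, adjusted p = 9.24e-05). In the endothelial cultures Vegfa averaged 1.84 TPM and Vegfc 96.4 TPM. The part of other cell types' transcripts in the values of these ligands was not tested. Among receptors, Flt1, a high-affinity decoy for Vegfa, was at 483 and 317 against 125 and 199.6 TPM (adjusted p = 0.00733, but 0.0929 without yolk sac library 1). Kdr, Flt4 and Nrp2 did not pass the test. Of the VEGF list 4 of 9 were higher and 0 lower, with 2 higher without yolk sac library 1. In the Tie list 3 of 6 were higher and 0 lower: the phosphatase Ptprb, the ligand Angpt1 and the receptor Tek (498 and 406.5 against 209 and 246 TPM, adjusted p = 0.0121). The call of Tek ended without yolk sac library 1 (0.17) or 2 (0.081) and with scaling by the pan-endothelial genes (0.063).

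BMP and TGF-beta genes were higher in 4 of 23 (2 without yolk sac library 1) and lower in 2 (5 under the scaling by pan-endothelial genes). The type I receptor Acvrl1 was at 540 and 458 against 172 and 198 TPM (1.38 ± 0.21, adjusted p = 0.00102), and the co-receptor Tgfbr3 at 115 and 80.5 against 21.4 and 29.7 TPM. The ligand Tgfb2 was lower, at 3.92 and 3.58 against 11.3 and 16.03 TPM. Notch genes were higher in 3 of 17 (1 without yolk sac library 1 and 5 without embryo library 2) and lower in 5, and the receptors Notch1 and Notch4 overlapped between the groups. In the guidance list 8 of 17 were higher and 0 lower, with the ligand Slit2 at 38.6 and 27.97 against 2.94 and 5.35 TPM (2.99 ± 0.25, adjusted p = 2.1e-05). The ligand Efnb1 was at 71.3 and 72.0 against 10.7 and 14.9 TPM (2.46 ± 0.19). Both genes are also made outside endothelium, and the part of the stromal and endodermal transcripts in these values was not tested.

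Metabolic, vasoactive and junctional genes followed. The lipid list had 5 of 13 higher and 1 lower: the fatty acid carriers Fabp4 (482 and 576 against 53.8 and 45.0 TPM, 3.36 ± 0.24) and Fabp5 (3034 and 3273 against 375 and 281 TPM, 3.20 ± 0.30) were higher. Tcf15, a transcription factor that drives fatty acid transport genes, was lower (19.3 and 19.8 against 93.2 and 109 TPM, -2.41 ± 0.19). Flow and vasoregulation genes were higher in 5 of 15 and lower in 3: Thbd, thrombomodulin, was at 329 and 319.5 against 55.4 and 79.4 TPM, and Plat, tissue plasminogen activator, at 5.65 and 6.65 against 21.5 and 24.7 TPM. In the adhesion list 5 of 17 were higher and 3 lower, with 3 higher without yolk sac library 1 or embryo library 2 and 2 without yolk sac library 2. Cdh2, N-cadherin, was at 5.47 and 4.35 against 68.8 and 87.2 TPM (-4.03 ± 0.21, adjusted p = 1.03e-06), and Madcam1, an addressin of mucosal venules, was lower as well. The retinoic acid list was split 3 to 3 of 13. Dhrs3, which reduces retinal, and the degrading enzyme Cyp26b1 were among those higher. They averaged 7.77 and 0.271 TPM in the endothelial cultures, and the part of other cell types' transcripts in their values was not tested. Stra6, a membrane receptor for retinol uptake, was among those lower (1.64 and 0.219 against 32.1 and 33.1 TPM, adjusted p = 0.00191). The call of Stra6 ended without embryo library 1 (0.0806) or 2 (0.073) and with no filter on low counts (0.0724).

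Endocardial genes were higher in 5 of 10 (3 without yolk sac library 1) and lower in 3. Nrg1, the neuregulin ligand, was at 20.5 and 10.4 against 1.02 and 0.775 TPM (4.02 ± 0.42), and Gata5, a transcription factor of endocardium, at 0.217 and 0.136 against 6.59 and 3.58 TPM (-5.01 ± 0.56). Hemogenic and stem cell factors were higher in 6 of 20 and lower in 2. The higher count was 3 without embryo library 1, 11 without embryo library 2 and 2 to 4 with limma, and the lower count was 1 without yolk sac library 2 or either embryo library. Lmo2, a cofactor of Tal1, was lower at 127 and 131 against 373 and 361 TPM (-1.57 ± 0.19, adjusted p = 0.000214), while Tal1 and Lyl1 did not pass the test. Basement membrane genes were higher in 3 of 13 and lower in 2, and Col4a1, its main collagen, was at 3431 and 2581 against 1200 and 2181 TPM and was not called. The higher count was 7 without embryo library 2, 6 with DESeq2, and 1 with the replicate block or without either yolk sac library, and the lower count was 0 without yolk sac library 2 and 4 without embryo library 1. In the apelin, adrenomedullin and chemokine list 4 of 17 were higher and 5 lower, with Esm1, a proteoglycan of tip cells, at 238 and 160.2 against 27.3 and 36.5 TPM (2.60 ± 0.22). The 5 lower became 1 without yolk sac library 1, 2 without library 2, 3 with the replicate block and 0 in a test against a 2-fold change.

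Interferon response and antigen presentation genes were higher in 17 of 18 and lower in 0 (median 2.13). All 18 had both yolk sac libraries above both embryo libraries, against 60.1% of all genes with groups that did not overlap. Ifit3, an interferon-induced antiviral protein, was at 19.3 and 7.00 TPM in yolk sac and 0.691 and 0.806 TPM in embryo (4.07 ± 0.51, adjusted p = 0.000275). Tap1, the peptide transporter for class I molecules, was at 14.3 and 12.4 against 1.71 and 2.54 TPM, and Psmb8, an immunoproteasome subunit, at 22.4 and 19.5 against 2.72 and 4.51 TPM. Ifit1 was at 8.17 and 1.93 against 0.113 and 0.041 TPM (6.00 ± 0.87, adjusted p = 0.00064, with 0.0538 and 0.054 without embryo library 1 or 2). In Ifit1 and Ifit3 yolk sac library 1 was far above library 2, whereas B2m, the class I light chain, was nearly equal in both at 821 and 827 against 374 and 364 TPM. Bst2, tetherin, was at 933 and 782 against 142 and 152 TPM. The 20 macrophage genes summed to 940 and 1125 TPM in yolk sac and 421 and 588 in embryo, of which Mrc1 was 498 and 335.5 against 19.7 and 39.5 TPM. The 11 leukocyte genes summed to 395 and 442 against 477 and 595 TPM, a sum led by Lcp1, which was lower (187 and 159 against 318 and 336 TPM), while 5 of the 11 were higher. Early response genes were higher in 7 of 12, as given above, and the part of these lists in the interferon result was not tested.

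Ifitm2 (628 and 648 against 436 and 377 TPM) missed the threshold with an adjusted p of 0.06. The list also has members with close copies (the Ifitm and H2 genes), whose estimates are less certain. The 250 bases upstream of the start were searched for 9 motifs on both strands, and the interferon-stimulated response element (GAAA, any 2 bases and GAAA) was found upstream of 6 of the 16 list members with a RefSeq promoter. It was found in 3.46% of all 27025 genes and in 4.61%, 1.97% and 2.94% of the higher, lower and uncalled genes. The other 8 (the HNF1 motif above, CAAAGTCCA for HNF4, CTTTGAT and CTTTGA for TCF, AGATAA for GATA, TTC, any 3 bases and GAA for the gamma-activated site, TGACGTCA for CRE, and GGGG, any base and TTTCC for NF-kappaB) were each found upstream of 0 to 4 of the 16, with CTTTGA holding every CTTTGAT match. The motif is in capitals in the windows of 4 members, shown because they carry the element: Ifit1 (chr19:34640639-34640888, plus strand), Ifit3 (chr19:34583279-34583528, plus strand), Isg15 (chr4:156200819-156201068, minus strand) and Bst2 (chr8:71537473-71537722, minus strand), all in GRCm38.p6. Overlapping matches run together, as in the 3 of Isg15. A match is a letter pattern and not a measured site.

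Ifit1: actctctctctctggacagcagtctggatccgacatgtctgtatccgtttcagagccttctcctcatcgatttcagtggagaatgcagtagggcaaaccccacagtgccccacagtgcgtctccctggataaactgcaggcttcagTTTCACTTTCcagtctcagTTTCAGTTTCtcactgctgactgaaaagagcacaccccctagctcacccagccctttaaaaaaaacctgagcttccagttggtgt
Ifit3: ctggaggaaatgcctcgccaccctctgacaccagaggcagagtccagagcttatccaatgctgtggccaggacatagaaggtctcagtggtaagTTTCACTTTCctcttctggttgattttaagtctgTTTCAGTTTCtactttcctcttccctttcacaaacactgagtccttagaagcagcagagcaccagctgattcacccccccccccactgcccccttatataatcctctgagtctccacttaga
Isg15: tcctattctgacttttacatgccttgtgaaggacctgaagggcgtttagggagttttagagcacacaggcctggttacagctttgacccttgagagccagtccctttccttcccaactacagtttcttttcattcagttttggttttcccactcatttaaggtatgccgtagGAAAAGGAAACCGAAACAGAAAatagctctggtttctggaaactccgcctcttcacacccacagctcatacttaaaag
Bst2: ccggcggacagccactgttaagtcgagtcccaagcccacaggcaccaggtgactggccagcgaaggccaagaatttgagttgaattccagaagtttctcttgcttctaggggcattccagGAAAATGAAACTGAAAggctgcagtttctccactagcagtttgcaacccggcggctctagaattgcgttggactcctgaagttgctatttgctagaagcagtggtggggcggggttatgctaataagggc

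**Figure D4:**
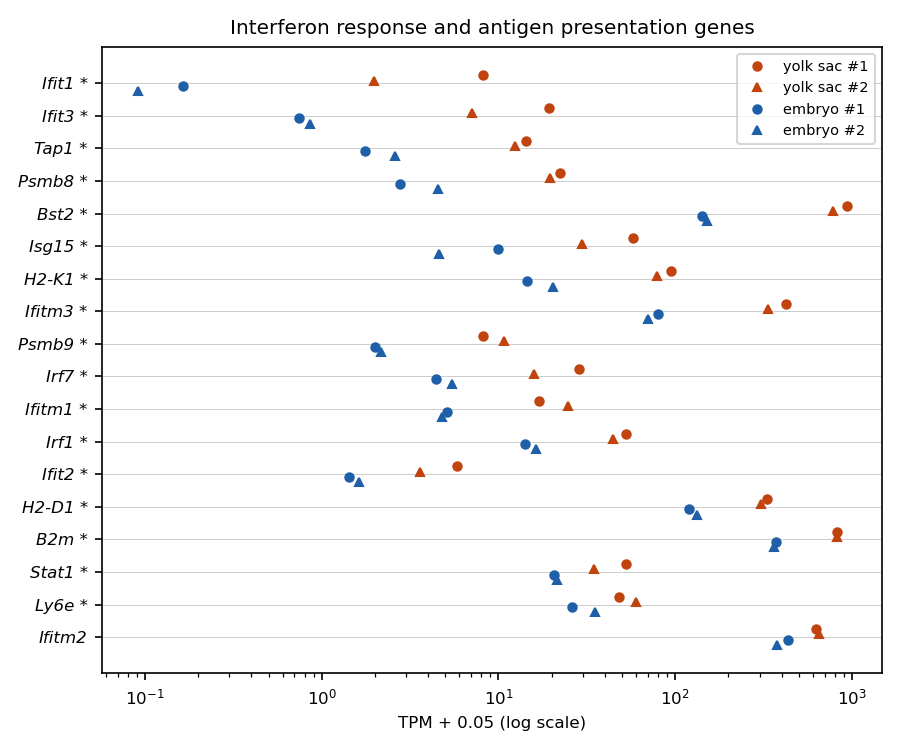
TPM plus 0.05 on a log scale for the 18 interferon response and antigen presentation genes, with yolk sac in red, embryo in blue and an asterisk for an adjusted p under 0.05. All 18 genes have both yolk sac libraries to the right of both embryo libraries, and Ifitm2 alone lacks an asterisk.

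Hox genes, which encode position along the body axis, were split by cluster. Of 28 tested, 8 were higher and 7 lower. In the Hoxb cluster 6 genes were higher and none lower: Hoxb6 was at 27.9 and 24.7 TPM in yolk sac and 3.77 and 6.60 TPM in embryo (2.32 ± 0.28, adjusted p = 0.000201), Hoxb2 at 38.5 and 37.5 against 9.13 and 11.2 TPM (1.86 ± 0.21) and Hoxb8 at 31.9 and 28.6 against 8.01 and 10.03 TPM (1.70 ± 0.20). In the Hoxa cluster 4 genes were lower and none higher, with Hoxa5 at 4.88 and 5.90 against 15.5 and 16.1 TPM (-1.60 ± 0.27, adjusted p = 0.00184). In the Hoxd cluster 3 were lower and none higher, among them Hoxd9 at 1.31 and 1.26 against 5.40 and 5.46 TPM (-2.14 ± 0.37), and in the Hoxc cluster 2 were higher, both under 5 TPM in every library. The groups did not overlap for 22 of the 28 (9 higher and 13 lower in yolk sac), against 60.1% of all genes tested. Under the scaling by pan-endothelial genes 5 Hox genes were higher and 11 lower.

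**Figure D5:**
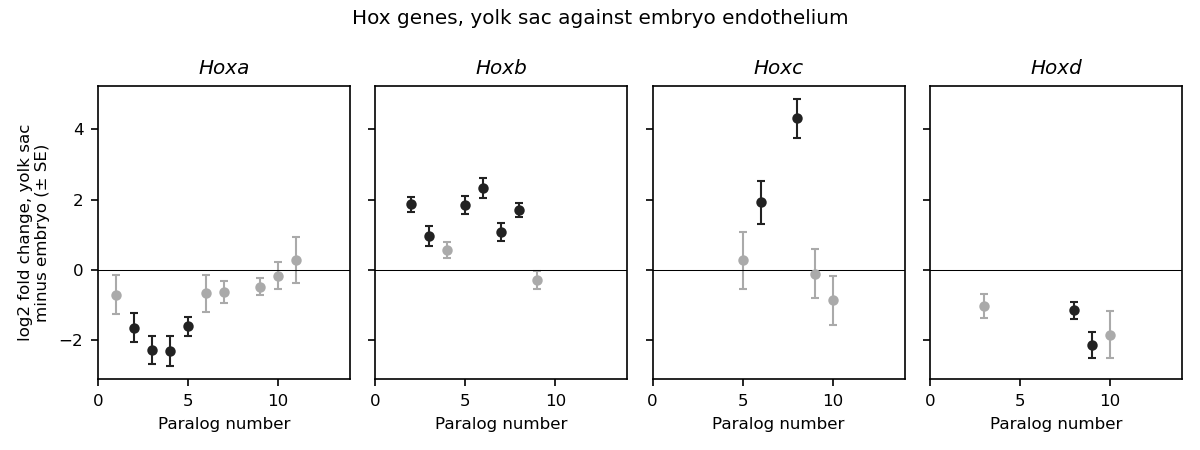
Log2 fold change of yolk sac minus embryo with its standard error for tested Hox genes by cluster and paralog number, with called genes in black and the others in grey. Called Hoxb genes lie above 0 and called Hoxa and Hoxd genes below it, and Hoxd11 (no count in yolk sac) is not drawn.

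Among 13 imprinted genes 5 were higher and 1 was lower. The higher count was 2 without yolk sac library 1 and 3 without embryo library 1, and the lower count was 0 without either yolk sac library. Phlda2, which restrains placental growth, was at 91.9 and 77.0 TPM in yolk sac and 0.495 and 0.238 TPM in embryo (7.71 ± 0.38, adjusted p = 8.32e-07). Dlk1, a membrane ligand, was at 148 and 78.8 against 6.30 and 8.34 TPM (3.91 ± 0.29, adjusted p = 8.54e-06). In the endothelial cultures Phlda2 averaged 0.105 TPM and Dlk1 27.2 TPM. The part of endodermal and stromal transcripts in the values of this list was not tested. Igf2, a fetal growth factor, was at 6329 and 5535 against 2345 and 2969 TPM (adjusted p = 0.0272), but its adjusted p was 0.361 and 0.299 without yolk sac library 1 or 2, 0.157 with the replicate block and 0.0944 with scaling by the pan-endothelial genes. Of 20 cell cycle genes 0 were called with edgeR or DESeq2, 2 were at an unadjusted p under 0.05, and 8 were lower under the scaling by pan-endothelial genes and 7 without embryo library 2. Glycolysis and hypoxia genes were higher in 4 of 17 and lower in 2 (1 without yolk sac library 2), and the enzymes Pkm, Ldha and Eno1 were not called.

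Levels in the endothelial cultures were then set beside the calls. Among 2373 genes under 1 TPM in those cultures 34.2% were higher and 10.4% lower in yolk sac. Among 8351 genes at 10 TPM or more, 10.7% were higher and 7.42% lower. Among genes at 20 TPM or more in the cultures, the largest increases included Adamts5, a matrix protease (64.1 and 52.0 against 0.959 and 1.66 TPM), Hopx, a transcriptional cofactor (28.1 and 24.7 against 1.39 and 1.57 TPM), and Tspan7, a tetraspanin (376 and 322 against 25.6 and 30.3 TPM). The largest decreases included Nts, neurotensin (0.321 and 0.886 against 20.3 and 12.9 TPM), Etv4, an ETS factor (1.90 and 1.82 against 20.2 and 25.9 TPM), and Crmp1 (22.3 and 23.2 against 156 and 187 TPM). All 6, picked by the size of their change, had groups that did not overlap, as did 60.1% of all genes tested. Among genes with a count in each group and a mean of 20 TPM or more in embryo (predicted and clone-named genes left out), Tbx1, a T-box factor of the pharyngeal region, had the largest decrease, at 0.766 and 1.12 against 77.4 and 120 TPM (-6.72 ± 0.29, adjusted p = 4.24e-07).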

How the data were processed

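RNA-seq libraries of sorted endothelium were compared, 2 from yolk sac and 2 from embryo. Per the labels' protocols, total RNA came from Trizol lysates cleaned on RNeasy columns with DNase, and went into TruSeq v2 libraries. No strand setting is given, so reads of antisense or overlapping gene pairs cannot be separated. The submitters' processing notes name Bowtie 0.12.9, RSEM 1.2.3, CASAVA 1.8.2 and the mm10 build. The authors deposited expected counts per gene, which divide reads that fit several transcripts, and TPM, rescaled in a way that no source used here describes. The TPM table names 1 column more than it holds, and its columns were taken by number after a check against the zeros of the counts, which matched in 31 of 31 libraries.

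Expected counts were rounded, filtered with filterByExpr, scaled by TMM and fitted without a block by the robust quasi-likelihood method of edgeR 4.0.16 (R 4.3.3). P-values were Benjamini-Hochberg adjusted over all 13673 genes, with 0.05 as the threshold. DESeq2 1.42.0, limma 3.58.1 on log2 TPM, other scalings and filters, and leaving out each library were alternatives. With 2 against 2 libraries an exact permutation test cannot go below 0.333, so summed levels carry no test. No replicate pair was a duplicate.

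The groups, 39 gene lists (Hox genes included) and members were chosen with earlier results of these data known. Genes were named by a rule, which took the sort markers, Kdr and Ptprc. It took the 15 largest changes in each direction at a mean of 20 TPM or more without overlap (predicted, clone-named and small RNA genes left out). From each list it took up to 4 called members a direction at 5 TPM or more. Up to 3 uncalled members of each list were taken by mean TPM, with no lower limit. The 15 largest changes each way at 20 TPM or more in endothelial cultures completed the rule. The text gives fewer. Other members named singly, and the promoter motifs, were chosen after their values were seen. Positions are from GENCODE on GRCm38, and promoters from RefSeq.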

Additional observations from a re-analysis of the deposited data

How the results depend on the processing

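Each of 17 alternatives kept the direction of those of the 205 called named genes that it fitted. These genes were picked as called, and some also because their groups did not overlap. For such groups, leaving out a library cannot turn the direction apart from a shift in scaling. The kept direction is therefore not independent support. Of all 300 named genes, called or not, 229 were fitted with the other cell types' list genes left out, 294 with the filter at 1 CPM and 296 by limma with a filter, and 300 in each of the others. Of the 205, 163 stayed called whichever library was left out. Hba-x, a globin that was not called, turned higher and was called without embryo library 2 (1.54 on the log2 scale, adjusted p = 0.0206 with edgeR), whereas it was called lower without embryo library 1 (-1.91, adjusted p = 0.0031). Counts of genes higher and lower in yolk sac were 530 and 132 with all 9 groups in 1 fit, 1056 and 318 in a test against a 2-fold change, and 1595 and 3386 with scaling by pan-endothelial genes. By limma on log2(TPM + 1) without a filter 713 genes were lower. Leaving out 1 library gave 1675 to 2389 higher genes and 716 to 1860 lower genes, with the lowest counts without a yolk sac library (716 without library 1 and 737 without library 2) and the highest without embryo library 2. With all 9 groups, higher members numbered 1 for the pan-endothelial list, 2 for the sinusoidal, 3 for the interferon and 4 for the stromal list, and 8 brain endothelial members were lower. The 2-fold test left 3 pan-endothelial members, and leaving out 1 library 3 to 7. In the other alternatives that fitted them these counts stayed within 1.5 times. The smaller counts moved further: 6 pan-endothelial members were lower with scaling by that list, and 1 stromal member was lower by limma on log2(TPM + 0.1), by limma without a filter and in the 2-fold test, and 0 with all 9 groups. Of the early response list 4 members were higher by limma without a filter and 2 in the 2-fold test. For these shifts the cause was not tested.

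The replicate numbers are not said to mark a shared litter or day, and the replicate differences of the groups correlated at -0.0812 over 13673 genes. A fit with the replicate block called 2011 genes higher and 963 lower. The 4 libraries limit small changes, and genes with few counts carry wide errors. No alternative of the planned list was left out.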

Other observations

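Families of transcription factors, picked after their values were seen, showed differences of both signs. Of 27 forkhead genes tested 7 were higher and 7 lower in yolk sac. Foxf1, a forkhead factor of the mesenchyme around endoderm, stood at 109 and 89.8 TPM in yolk sac and 4.91 and 4.61 TPM in embryo (4.32 on the log2 scale, adjusted p = 1.03e-06 with edgeR), whereas its relative Foxf2 was lower, as given above. Foxc1, a regulator of vascular and cranial mesenchyme development, was at 3.62 and 3.36 against 28.8 and 41.7 TPM, and Foxq1 at 3.50 and 3.65 against 27.8 and 27.2 TPM. The yolk sac and embryo libraries of these genes did not overlap, as for 60.1% of all genes tested.

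Gata6, a factor of endoderm and mesoderm, was at 38.3 and 34.2 against 7.59 and 8.26 TPM (2.14, adjusted p = 2.76e-05), the opposite direction to Gata4 and Gata5, and 1 of 6 GATA genes tested was higher and 2 were lower. Hand1, a factor of extraembryonic mesoderm and trophoblast, was at 25.5 and 18.9 against 0.144 and 0.145 TPM (7.20, adjusted p = 1.46e-06). Zic2 had no count in yolk sac and 12.7 and 12.5 TPM in embryo. Tcf7l1, a repressor in Wnt signalling, was higher (115 and 102 against 37.0 and 54.1 TPM), where Tcf7 was lower (10.2 and 10.7 against 28.7 and 29.8 TPM). Ebf genes, which mark mesenchyme and B cells, were lower in 2 of 3 tested, with Ebf3 at 1.53 and 2.28 against 26.1 and 46.1 TPM. The part of stromal and endodermal cells in these values was not tested.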
